A study of Homo sapiens with 6 samples.

Results

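The genes described here are 10 subunits of the nucleosome remodelling and deacetylase complex, NuRD, taken from the read count table by gene symbol: CHD3, CHD4, MTA1, MTA2, MTA3, MBD2, MBD3, GATAD2A, GATAD2B and RBBP4. All 10 symbols were found among 23250 rows, and all 10 were among the 12406 genes with enough counts to be tested. RNA was sequenced from OCI-LY1, an established human cell line derived from a diffuse large B cell lymphoma. In all 6 libraries the cells had received siRNA against BCL6, the transcriptional repressor of germinal centre B cells, and BCL6 had been reintroduced, as the wild-type protein in 3 libraries (the wild-type rescue) and as a mutant of its second repression domain, RD2, in the other 3 (the mutant rescue). Which residues were mutated is not stated in the labels, no library without a rescue was analysed here, and everything below is transcript level in a single cell line.

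NuRD joins 2 enzyme activities. CHD3 and CHD4 are ATPases that slide nucleosomes, and HDAC1 and HDAC2 remove acetyl groups from histones. The MTA proteins are scaffolds that hold the deacetylases and the histone-binding proteins RBBP4 and RBBP7, MBD2 or MBD3 bridges this part to GATAD2A or GATAD2B, and these in turn hold the CHD ATPase. Most places in the complex can be filled by more than 1 paralogue, and complexes with different paralogues coexist in a cell. In germinal centre B cells MTA3 is known as a partner of the middle repression domain of BCL6, so the comparison asks whether the transcripts of the partner complex differ between cells with RD2-mutant and wild-type BCL6.

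In the CHD, MTA and MBD families some paralogues fell in the mutant rescue and others did not. CHD3, MBD2, MTA3 and MTA1 were 1.57-fold, 1.44-fold, 1.37-fold and 1.26-fold lower in the mutant rescue, MTA2 and GATAD2B were 14.8% and 10.3% higher, and CHD4, MBD3, GATAD2A and RBBP4 did not pass the test. Among the partner genes outside the 10, the deacetylase gene HDAC1 was 1.29-fold lower. Thus 4 of 10 members fell and 2 rose (quasi-likelihood test of edgeR, with p adjusted over all tested genes by Benjamini-Hochberg and a threshold of 0.05). Across all tested genes 70.1% passed this test, 35.4% higher and 34.8% lower, so 6 of 10 is near the background. The median log2 fold change of the members was -0.01 and their median absolute change 0.17, against 0.01 and 0.29 over all tested genes. When a change of more than 1.2-fold was required (edgeR glmTreat), which 37% of tested genes passed, CHD3, MTA3 and MBD2 passed and the other 7 members did not. The libraries of the groups did not overlap for 6 members, and for 72.4% of tested genes.

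**Figure D1:**
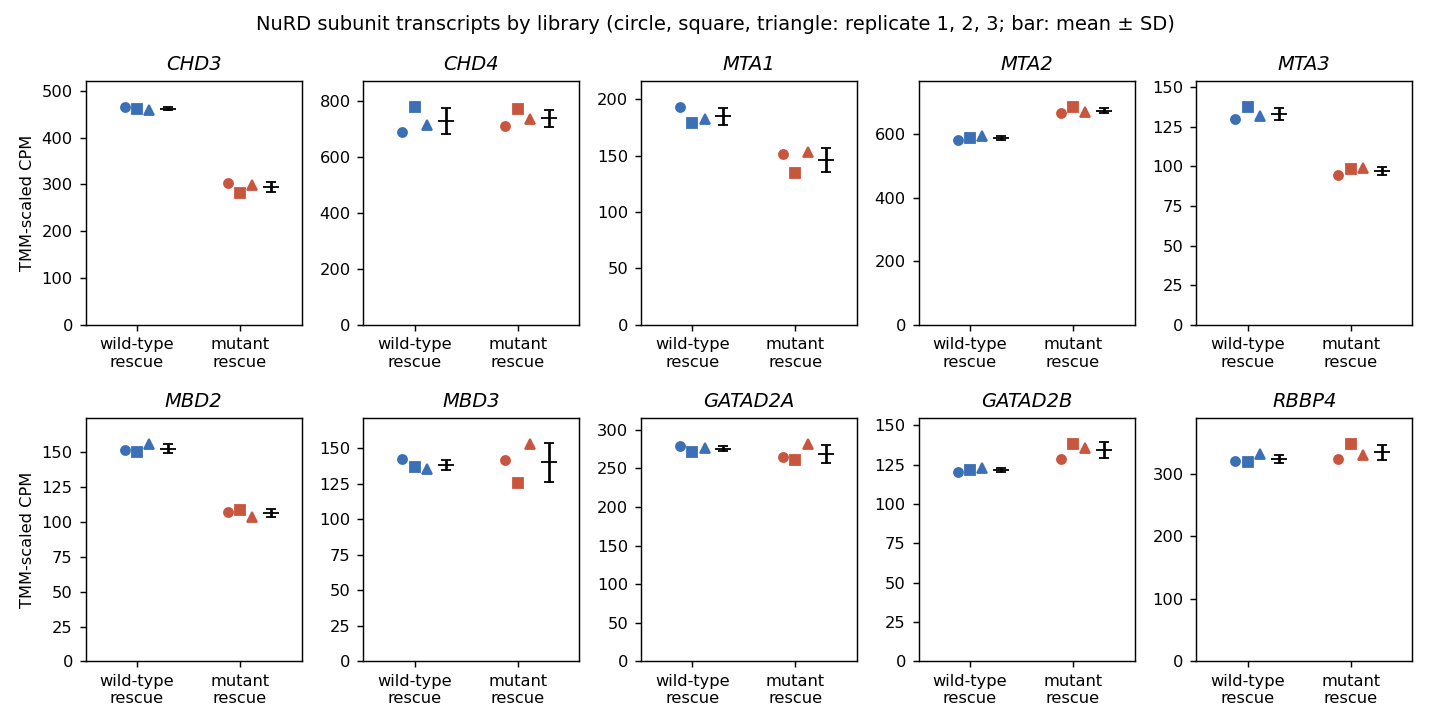
TMM-scaled CPM (linear axis from 0) of each NuRD subunit in each library. Blue marks are the wild-type rescue and red marks the mutant rescue, circles, squares and triangles are replicates 1, 2 and 3, and the black bar is the mean ± SD of 3 libraries. CHD3, MTA1, MTA3 and MBD2 lie lower in every mutant rescue library, and MTA2 and GATAD2B lie higher.

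Values are CPM, counts scaled to a common library size, here with TMM-scaled library sizes, with means ± SD over n = 3 libraries. Log2 fold changes are given as mutant over wild-type rescue, and SE is the standard error of the log2 fold change. For a gene called lower by a fold, or said to fall by one, that fold is wild-type over mutant rescue. Libraries held 26298456 to 27574867 counts, and the 10 members together took 0.305% to 0.310% of the counts with wild-type BCL6 and 0.294% to 0.300% with the mutant. The labels do not say whether libraries came from separate cultures, so p-values reflect how far these libraries vary, possibly for technical reasons only. Fewer cells carrying a transcript and less transcript per cell cannot be told apart in bulk RNA. All 9 B cell markers were detected, with a summed level of 3635 to 3667 CPM with wild-type BCL6 and 3742 to 3771 CPM with the mutant. All 5 T cell markers in the table summed to at most 0.263 CPM, with CD3E and CD2 at 0 counts in every library, and 6 myeloid markers to at most 0.821 CPM, with MPO at 0 counts. The 6 stromal and epithelial markers summed to 17.4 to 18.7 CPM with wild-type BCL6 and 6.61 to 8.12 CPM with the mutant, and their part in the results was not tested. Of these, EPCAM (16.0 and 3.71 CPM) and PECAM1 (1.53 and 0.598 CPM) fell, VIM (0.325 and 2.73 CPM) rose 8.37-fold, and the other 3 were too low to test. BCL6 transcript itself, which may include the introduced copy, was 679 ± 24.3 CPM in the wild-type and 519.9 ± 8.71 CPM in the mutant rescue, so the mutation and the amount of BCL6 cannot be told apart.

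The remodelling ATPases diverged. CHD3, also called Mi-2 alpha, had 465, 462 and 459.9 CPM in the wild-type rescue and 303, 281 and 298 CPM in the mutant rescue. Every mutant rescue library was lower than every wild-type rescue library. Its mean went from 462 ± 2.74 to 294 ± 11.4 CPM, a log2 fold change of -0.65 (SE 0.032; edgeR quasi-likelihood test, adjusted p = 2.04e-13), which was larger in size than that of 80.8% of tested genes. CHD4, or Mi-2 beta, the best studied of these ATPases, had 688, 778 and 715 CPM in the wild-type rescue and 709, 769.7 and 736 CPM in the mutant rescue. These values overlapped, and the log2 fold change was 0.02, with a 95% interval from -0.069 to 0.11 (SE 0.042; edgeR, adjusted p = 0.657). The ratio of CHD3 to CHD4 counts within a library thus went from 0.637 to 0.399. GENCODE annotates a readthrough gene, AC006064.6, and an antisense gene, AC006064.2, over 46.9% and 10.2% of the exon bases of CHD4. Neither is a row of the count table, and the strand setting of the counting is unknown here.

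The annotated starts of these ATPase genes also differ in base composition. Whether they are the starts used in these cells was not tested. The sequences below are the 300 bases from 250 before to 50 after the RefSeq gene start (build GRCh38.p14), and are shown because the ratio of CHD3 to CHD4 differed between the groups. Capitals mark CpG dinucleotides, the sites that MBD2 binds when they are methylated. The CHD3 window (chr17:7888539-7888838, plus strand) holds 10 CpG, the CHD4 window (chr12:6606402-6606701, minus strand) holds 24, and the median of 35116 such windows is 14.
CHD3: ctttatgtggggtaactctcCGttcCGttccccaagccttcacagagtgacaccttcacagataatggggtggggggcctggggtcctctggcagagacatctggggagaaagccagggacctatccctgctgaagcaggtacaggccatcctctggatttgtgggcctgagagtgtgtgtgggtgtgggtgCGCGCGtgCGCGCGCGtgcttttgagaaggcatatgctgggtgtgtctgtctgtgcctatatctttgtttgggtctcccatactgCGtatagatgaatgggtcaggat
CHD4: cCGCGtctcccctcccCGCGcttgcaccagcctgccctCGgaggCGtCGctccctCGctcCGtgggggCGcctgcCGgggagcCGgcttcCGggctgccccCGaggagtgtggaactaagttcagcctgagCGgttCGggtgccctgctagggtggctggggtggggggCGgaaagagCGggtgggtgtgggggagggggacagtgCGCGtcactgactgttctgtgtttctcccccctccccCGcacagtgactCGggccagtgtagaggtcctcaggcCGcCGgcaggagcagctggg
The table lists 14 windows for the 10 members, with 6 to 49 CpG each. They are not all separate, since some members have more than 1 window and the RBBP4 windows overlap each other. The letters TTCCTNGAA, which stand for a BCL6 binding site and were searched on both strands, were in 0 of these 14 and in 1.56% of all windows. A GC box, GGGCGG on either strand, was in 12 of 14 and in 45% of all windows, CCAAT in 5 of 14 and 34.6%, CCGGAAG in 4 of 14 and 10.3%, CACGTG in 1 of 14 and 7.26%, and TATAAA in 0 of 14 and 11.5%. These matches describe the letters in these windows, and methylation or binding was not measured.

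All 3 MTA scaffold genes changed, and not in the same direction. MTA3, the scaffold known as a BCL6 partner, had 129.9, 138 and 132 CPM in the wild-type rescue and 94.4, 98.4 and 99.2 CPM in the mutant rescue. The groups did not overlap. Its mean fell from 133 ± 3.96 to 97.3 ± 2.61 CPM (log2 fold change -0.45, SE 0.036; edgeR, adjusted p = 5.62e-10). MTA1, the founding member of the family, had 193, 179 and 183 CPM in the wild-type rescue and 152, 134 and 154 CPM in the mutant rescue. It fell from 185 ± 7.31 to 146 ± 10.7 CPM (log2 fold change -0.34, SE 0.047; edgeR, adjusted p = 1.07e-05), but the fall was not shown to exceed 1.2-fold (glmTreat, adjusted p = 0.0553). MTA2 moved the other way, with 583, 586 and 593 CPM in the wild-type rescue and 668, 685 and 669.8 CPM in the mutant rescue. It rose from 587 ± 5.14 to 674 ± 9.32 CPM (log2 fold change 0.20, SE 0.029; edgeR, adjusted p = 2.88e-06), and all mutant rescue libraries were above all wild-type rescue libraries.

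Since MTA2 rose while MTA3 fell, the windows at their starts are shown with CpG in capitals. RefSeq lists 2 windows for each of these genes, and 1 of each is printed, chosen with their contents known. The MTA3 window (chr2:42493860-42494159, plus strand) holds 49 CpG and 5 GC boxes. The MTA2 window (chr11:62601816-62602115, minus strand) holds 30 CpG, 1 GC box and 3 CCGGAAG matches on either strand, 2 of which overlap within CTTCCGGAAG. The windows not printed differ from these: that of MTA3 (chr2:42567795-42568094, plus strand) holds 6 CpG and 0 GC boxes, and that of MTA2 (chr11:62601201-62601500, minus strand) holds 38 CpG, 1 GC box and 0 CCGGAAG, so no contrast between the genes is drawn from them.
MTA3: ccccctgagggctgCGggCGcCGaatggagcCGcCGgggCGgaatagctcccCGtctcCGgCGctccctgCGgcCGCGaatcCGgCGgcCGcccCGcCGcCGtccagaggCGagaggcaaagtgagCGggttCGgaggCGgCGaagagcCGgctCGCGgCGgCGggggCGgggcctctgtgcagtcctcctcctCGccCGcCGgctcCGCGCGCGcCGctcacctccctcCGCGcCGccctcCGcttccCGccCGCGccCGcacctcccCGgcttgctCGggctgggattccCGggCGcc
MTA2: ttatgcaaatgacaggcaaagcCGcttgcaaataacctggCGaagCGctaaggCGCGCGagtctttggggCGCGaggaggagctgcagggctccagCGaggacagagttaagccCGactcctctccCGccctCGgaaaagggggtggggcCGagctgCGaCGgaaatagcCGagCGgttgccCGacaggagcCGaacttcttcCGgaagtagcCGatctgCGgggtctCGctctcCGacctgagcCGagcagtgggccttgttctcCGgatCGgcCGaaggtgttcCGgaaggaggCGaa

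MBD2 and MBD3 give the complex different relations to DNA methylation, since MBD2 binds methylated CpG and mammalian MBD3 does so poorly. MBD2 had 151, 150.4 and 156 CPM in the wild-type rescue and 107, 108 and 103 CPM in the mutant rescue. The groups were well apart, and the mean fell from 153 ± 2.97 to 106 ± 2.63 CPM (log2 fold change -0.52, SE 0.034; edgeR, adjusted p = 2.22e-11). MBD3 had 142, 137 and 135 CPM in the wild-type rescue and 142, 126 and 153 CPM in the mutant rescue. The 3 mutant rescue libraries enclosed the wild-type range, with a coefficient of variation of 9.87%, the widest of the 10 members in either group. Its log2 fold change was 0.02, with a 95% interval from -0.12 to 0.17 (SE 0.064; edgeR, adjusted p = 0.785), and without mutant rescue library 2 it was 0.093 and passed the test (adjusted p = 0.0135). The ratio of MBD2 to MBD3 counts went from 1.11 to 0.761.

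GATAD2A and GATAD2B, the p66 proteins that hold the ATPase to the rest of the complex, changed little. GATAD2B had 120.5, 121 and 123 CPM in the wild-type rescue and 128, 138 and 135 CPM in the mutant rescue. It rose from 122 ± 1.14 to 134 ± 5.04 CPM without overlap (log2 fold change 0.14, SE 0.035; edgeR, adjusted p = 0.0014). GATAD2A had 278, 272 and 276 CPM in the wild-type rescue and 264, 260.4 and 282 CPM in the mutant rescue. The highest of these 6 values was in a mutant rescue library, and the log2 fold change of -0.04 had a 95% interval from -0.11 to 0.035 (SE 0.034; edgeR, adjusted p = 0.360).

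RBBP4, a histone chaperone also found in the PRC2, SIN3 and CAF-1 complexes, had 321, 319.6 and 332 CPM in the wild-type rescue and 324, 348 and 331 CPM in the mutant rescue. The groups overlapped, and the log2 fold change was 0.045, with a 95% interval from -0.024 to 0.11 (SE 0.033; edgeR, adjusted p = 0.231). With library size scaling alone it was 0.070 and passed the test (adjusted p = 0.0326), and with trends in GC content and transcript length removed it was -0.013. Of the 50-base stretches in its annotated transcripts 20.6% also occur in other genes, 15.7% in the opposite-strand gene SYNC, which had 0 counts in every library, and 2.83% in the pseudogene RBBP4P1. For CHD3, MTA2, MBD2 and GATAD2B this share was 0, and for MTA3 and GATAD2A 0.718% and 0.247%. For MTA1 it was 6.38% and for MBD3 10.51%, and for CHD4, with its readthrough gene, 50.1%.

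**Figure D2:**
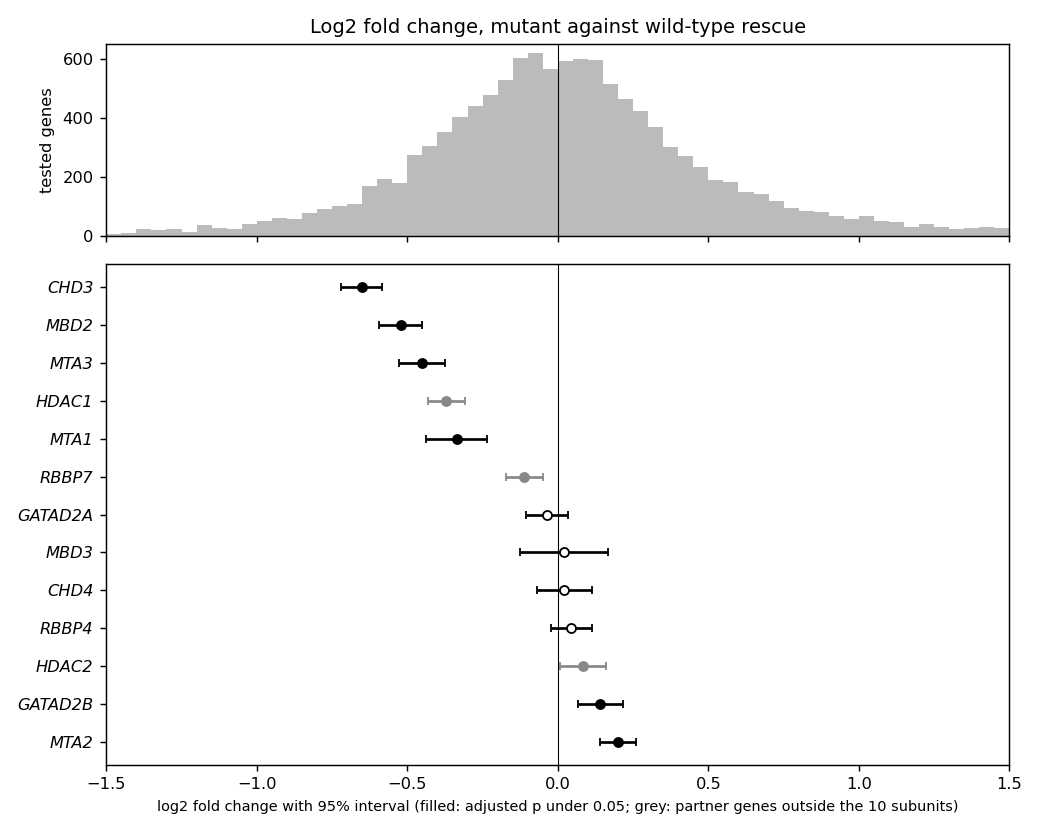
Top, log2 fold changes of all tested genes, of which 551 lie beyond 1.5 in size and are not drawn. Bottom, log2 fold change with its 95% interval (edgeR) for the 10 subunits in black and for HDAC1, HDAC2 and RBBP7 in grey, with filled points past the adjusted p threshold. CHD3, MBD2, MTA3 and HDAC1 lie below -0.37, and no gene shown lies above 0.20.

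The core genes outside the 10 members were measured with them. HDAC1 had 629, 651 and 638 CPM in the wild-type rescue and 489, 500.3 and 494 CPM in the mutant rescue, a log2 fold change of -0.37 (SE 0.029; edgeR, adjusted p = 3.79e-10) with no overlap. HDAC2 had 181, 189 and 180.4 CPM in the wild-type rescue and 187, 204 and 193 CPM in the mutant rescue, which overlapped. Its log2 fold change of 0.084 (SE 0.036; edgeR, adjusted p = 0.0444) lost the call in 9 of 16 alternatives, among them leaving out wild-type rescue library 1 (0.073) or 3 (0.074), leaving out mutant rescue library 2 (0.049) or 3 (0.089), and removing trends in GC content and length (0.021). RBBP7 fell by 0.11 on the log2 scale, from 409 ± 6.96 to 379 ± 4.67 CPM (SE 0.030; edgeR, adjusted p = 0.00237), while RBBP4 did not pass. Of the 11 companion genes on this list 7 were tested, of which 2 rose (ZMYND8 and HDAC2), 3 fell (HDAC1, RBBP7 and CDK2AP2, the last by 0.12 on the log2 scale) and 2 did not pass, with a median of -0.05. For comparison, 35.4% of all tested genes rose and 34.8% fell. ZMYND8, a chromatin reader that recruits NuRD to damaged DNA, rose 1.82-fold, from 149 ± 2.80 to 272 ± 1.71 CPM, the largest change on the list. CHD5, a neural relative of CHD3 and CHD4, was near the detection limit in both groups, at 0.147 ± 0.061 and 0.312 ± 0.249 CPM, where 3 counts equal 0.109 to 0.114 CPM.

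Ratios of paralogues within a library do not depend on how libraries are scaled, and 8 pairs were compared in this way, 6 of them between members. The groups did not overlap for 7 of the 8. The share of other gene pairs without overlap was not computed, and for single genes it was 72.4% of those tested. With 3 libraries in each group an exact two-sided permutation test cannot go below p = 0.1. These 7 pairs reached that value (exact permutation test, adjusted over the 8 pairs, p = 0.114). The size is therefore given with a standard error combined from the 2 genes' edgeR errors, which takes them as independent. Since both genes share their libraries, this error and its interval can be too narrow. For CHD3 to CHD4 the SD of the log2 ratio was 0.095 with wild-type BCL6 and 0.11 with the mutant. For MBD2 to MBD3 it was 0.058 and 0.18, and for MTA2 to MTA3 0.043 and 0.034. The log2 ratio of CHD3 to CHD4 was -0.56, -0.75 and -0.64 with wild-type BCL6 and -1.23, -1.45 and -1.30 with the mutant, a change of -0.68 (SE 0.053, 95% interval from -0.79 to -0.56). That of MTA2 to MTA3 was 2.17, 2.09 and 2.17 with wild-type BCL6 and 2.82, 2.80 and 2.75 with the mutant, a change of 0.65 (SE 0.046, 95% interval from 0.55 to 0.75). MTA2 counts were thus 4.41 times those of MTA3 in the wild-type rescue and 6.93 times in the mutant rescue.

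The ratio of MBD2 to MBD3 changed by -0.54 on the log2 scale (SE 0.073, 95% interval from -0.70 to -0.37), and that of MTA1 to MTA2 by -0.54 (SE 0.055, 95% interval from -0.65 to -0.42). MTA1 and MTA3, which both fell, kept overlapping ratios, 0.57, 0.38 and 0.47 on the log2 scale with wild-type BCL6 and 0.68, 0.45 and 0.63 with the mutant. Their change was 0.11, with a 95% interval from -0.014 to 0.24 (exact permutation test, p = 0.3). The p66 pair changed by -0.18 (SE 0.049) for GATAD2A to GATAD2B. Of the pairs that reach outside the members, HDAC1 to HDAC2 changed by -0.45 (SE 0.046) and RBBP4 to RBBP7 by 0.16 (SE 0.044).

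**Figure D3:**
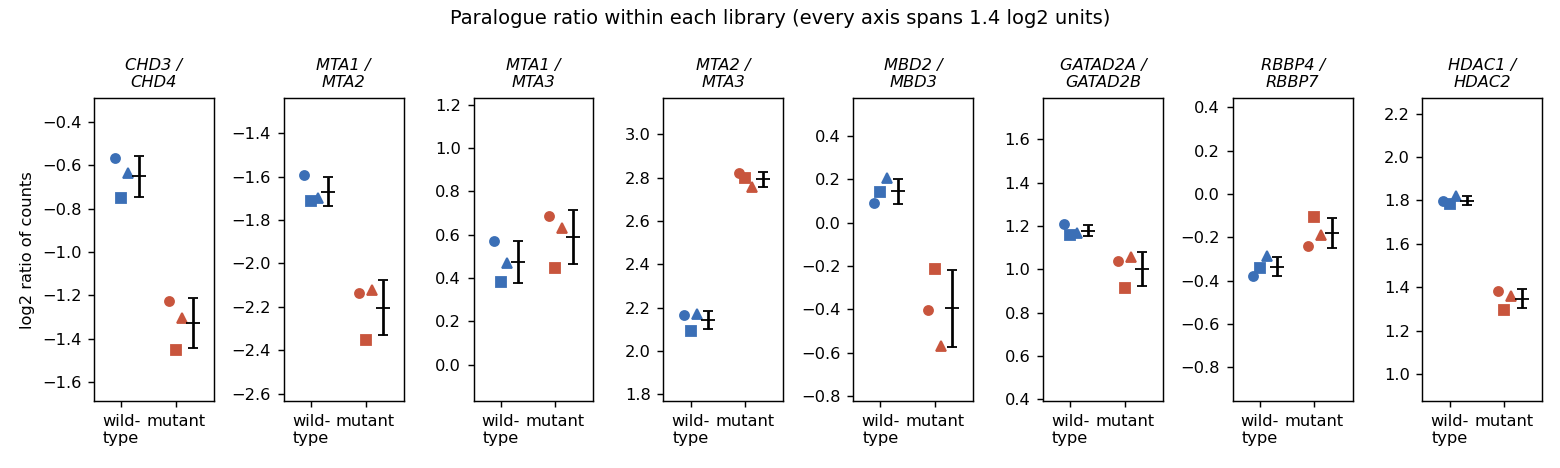
Log2 ratio of the counts of 2 paralogues within each library, for 8 pairs. Blue is the wild-type rescue, red the mutant rescue, marks are replicates 1 (circle), 2 (square) and 3 (triangle), bars are mean ± SD, and every axis spans 1.4 log2 units. The groups are apart for every pair except MTA1 to MTA3, with a shift of -0.68 for CHD3 to CHD4 and of 0.65 for MTA2 to MTA3.

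To compare levels between genes, CPM were divided by the length in kilobases of all exons annotated for the gene in GENCODE v29. In the wild-type rescue MTA2 led with 139 ± 1.21 CPM per kilobase, followed by CHD4 (57.2 ± 3.63), CHD3 (47.4 ± 0.280), GATAD2A (37.7 ± 0.466) and RBBP4 (34.2 ± 0.703). MTA1 (26.5 ± 1.05) and MBD2 (26.26 ± 0.511) came next and overlapped in their library values, and MBD3 (17.6 ± 0.471), GATAD2B (13.1 ± 0.123) and MTA3 (12.6 ± 0.375) came last. In the mutant rescue CHD3 dropped behind GATAD2A and RBBP4, to 30.2 ± 1.17 CPM per kilobase, MBD2 (18.3 ± 0.453) came to overlap MBD3 (17.8 ± 1.76), and MTA3 was last with 9.20 ± 0.247. GATAD2A (36.8 ± 1.55) and RBBP4 (35.3 ± 1.30) also overlapped there. With the length of the longest protein-coding transcript instead, MTA1 moved to the third place in both groups (64.0 and 50.7 CPM per kilobase), MTA2 and CHD4 kept the first places, and in the wild-type rescue MTA3 (22.8) came before GATAD2B (16.3), which was then last.

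On this scale MTA3 was a minor scaffold, with 7.08 ± 0.229% of the summed MTA level in the wild-type rescue and 4.86 ± 0.109% in the mutant rescue. MTA2 went from 77.99 ± 0.456% to 84.0 ± 0.834% and MTA1 from 14.9 ± 0.595% to 11.1 ± 0.850%, and the summed level of the 3 genes was 6.51% higher, going from 178 ± 0.785 to 189 ± 0.977 CPM per kilobase. CHD3 went from 45.3 ± 1.62% to 34.2 ± 1.78% of the CHD3 and CHD4 sum, which differed by -15.6%, going from 105 ± 3.52 to 88.2 ± 1.28 CPM per kilobase. MBD2 went from 59.9 ± 0.965% to 50.7 ± 3.07% of the MBD2 and MBD3 sum, which differed by -17.6%. GATAD2A held 74.2 ± 0.332% and 71.7 ± 1.098% of the p66 sum, which was 50.9 ± 0.450 and 51.3 ± 1.69 CPM per kilobase and overlapped between groups (exact permutation test, p = 0.9). The HDAC1 and HDAC2 sum differed by -20.7% and that of RBBP4 and RBBP7 by -3.38%. The other family shares and sums did not overlap between groups and reached the smallest possible value, p = 0.1 (exact two-sided permutation test, adjusted over 14 values p = 0.108). How often shares and sums of other genes do not overlap was not computed, and 72.4% of single tested genes did not. Annotated exons are not all used in these cells, so shares and sums depend on the length taken. With the longest protein-coding transcript the wild-type share of CHD3 was 36.6%, that of MTA1 23.0% and that of MTA3 8.18%. The MTA sum was then 279 CPM per kilobase with wild-type BCL6 and 288 with the mutant, a log2 change of 0.045 in place of 0.091.

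**Figure D4:**
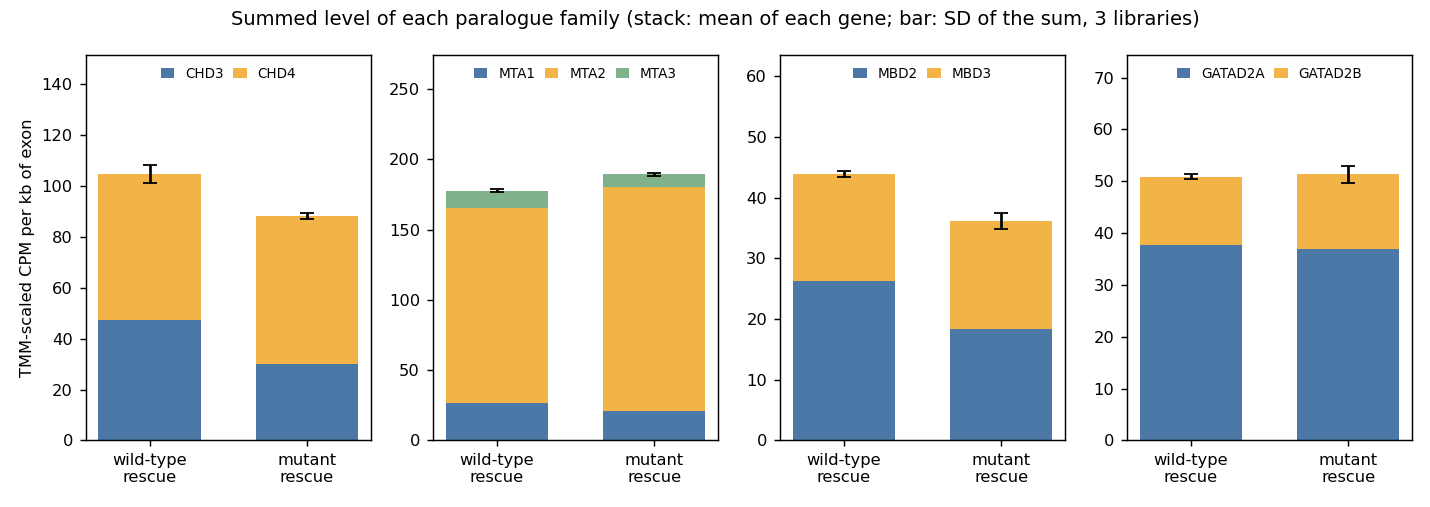
Summed TMM-scaled CPM per kilobase of annotated exon for 4 paralogue families, in the wild-type rescue and the mutant rescue. Coloured segments are the mean of each gene over 3 libraries and the black bar is the SD of the sum. The CHD and MBD sums are lower in the mutant rescue with smaller CHD3 and MBD2 segments, the MTA sum is higher with a larger MTA2 segment, and the p66 sums are alike in height at 50.9 and 51.3.

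Within the mutant rescue, library 2 stood somewhat apart from the other 2, and this touched the members. It held the lowest value of its group for 4 members (CHD3, MTA1, MBD3 and GATAD2A) and the highest for 5 (CHD4, MTA2, MBD2, GATAD2B and RBBP4). Relative to the mean of the other mutant rescue libraries, MBD3 was lower by a log2 difference of -0.23 and MTA1 by -0.19, while CHD4 and RBBP4 were higher by 0.091 and 0.088. Wild-type rescue library 2 differed from the mean of the others in its group by -0.023 for MBD3, -0.070 for MTA1, 0.149 for CHD4 and -0.030 for RBBP4. The CHD4 shift was thus not particular to the mutant rescue. The difference of mutant rescue library 2 went with the GC content of the transcripts. This content is 62.5% for MBD3, 61.6% for MTA1, 51.8% for CHD4 and 41.6% for RBBP4. Pearson's r was -0.86 across the 10 members and -0.56 across 9485 tested genes, which are not independent since all share the same libraries. Its part in single values was not tested beyond the fit with GC and length trends removed, in which CHD3 (-0.68), MBD2 (-0.56), MTA3 (-0.48), MTA1 (-0.33), MTA2 (0.20) and GATAD2B (0.098) kept their direction and their call. Across the 10 members the log2 fold change itself had r = -0.08 with GC content.

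**Figure D5:**
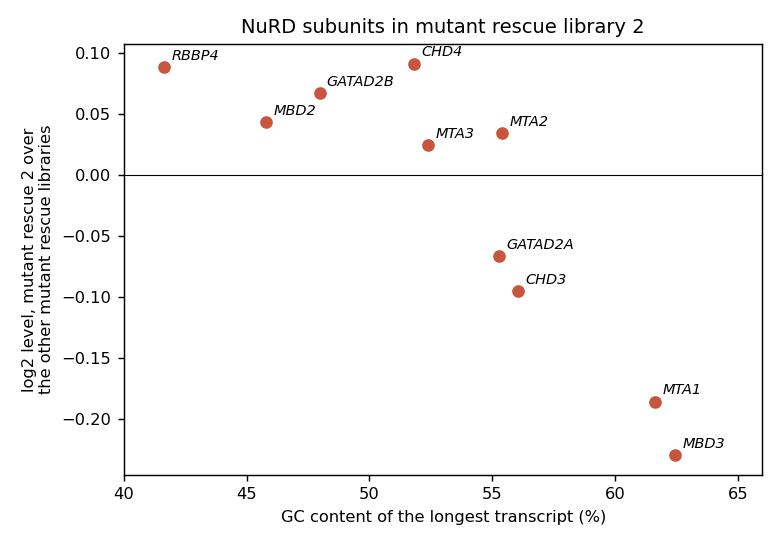
Log2 level of each NuRD subunit in mutant rescue library 2 over the mean of the other 2 mutant rescue libraries, against the GC content of its longest transcript in percent. Each point is 1 gene, and the points fall from RBBP4 and CHD4 near 0.09 to MBD3 at -0.23.

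Neighbouring groups of chromatin genes were counted for comparison, and none was tested as a set. Over all 12406 tested genes 4386 rose and 4316 fell. Of the 7 other CHD remodellers, counted without CHD5, 4 rose, none fell and 3 did not pass, with a median log2 fold change of 0.29. CHD1, which binds methylated histone H3 at active genes, rose by 0.60, CHD7 by 0.37, CHD1L by 0.32 and CHD2 by 0.29 on the log2 scale. Of 9 other genes with a methyl-CpG-binding domain or a related one 6 rose and 3 fell (median 0.14), where MBD1 (0.27) and the repair glycosylase gene MBD4 (0.30) rose and SETDB2 (-0.24), MBD5 (-0.29) and BAZ2B (-0.32) fell.

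Other chromatin complexes share HDAC1, HDAC2 or RBBP4 with NuRD. Of 13 SIN3 complex genes 9 rose, 2 fell and 2 did not pass (median 0.19), where 35.4% of all tested genes rose and 34.8% fell. The lower SIN3 genes were SAP130 (-0.088) and BRMS1L (-0.15), and with library size scaling 9 rose and 0 fell. ING1, a reader of methylated histone H3, rose by 0.48, SAP30L by 0.55 and ARID4A by 0.39 on the log2 scale. Of 7 CoREST genes 5 rose and 2 fell (median 0.24), with RCOR2 (1.39), RCOR3 (0.46) and PHF21A (0.41) higher. The demethylase gene KDM1A was lower (-0.24). Of 11 genes of PRC2 and CAF-1 5 rose, 2 fell and 4 did not pass (median 0.03), and the PRC2 genes PHF19 (0.87), PHF1 (0.71) and EZH2 (0.31) rose, with JARID2 (0.46) and MTF2 (0.15), and the CAF-1 genes CHAF1A (-0.22) and CHAF1B (-0.36) fell.

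Zinc finger factors that bring NuRD to DNA were also counted. Of 13 on the list 7 were tested, of which 2 rose, 3 fell and 2 did not pass (median -0.09). Of all tested genes 35.4% rose and 34.8% fell, so these counts are near the background. IKZF3, or Aiolos, an Ikaros family factor of mature B cells, fell 2.45-fold, from 138 ± 3.29 to 56.4 ± 1.42 CPM. Its relative IKZF2, or Helios, rose 1.38-fold, from 221 ± 5.91 to 305 ± 11.5 CPM, and BCL11A, a B lineage factor, went from 13.7 ± 0.824 to 7.53 ± 0.438 CPM, a fall of 1.82-fold. IKZF1, or Ikaros, was lower on the log2 scale (-0.095). SALL2 was higher (log2 fold change 0.58, SE 0.24; edgeR, adjusted p = 0.0392), at a low level of 0.790 ± 0.178 and 1.18 ± 0.233 CPM.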

How the data were processed

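The submitters' processing notes name CASAVA 1.8.2, STAR, edgeR and the build hg19, without their roles. Which counter and annotation were used, and how strand and multi-mapped reads were handled, is not given in the sources used here. Values are raw read counts, deposited with gene symbols and 1 column per library. Libraries were grouped by the genotype in the labels. Pairs of replicate libraries differed by more than counting noise (chi-square per degree of freedom 1.60 to 5.47 for genes totalling at least 20 counts in a pair). The highest values were those of mutant rescue library 2 against libraries 1 (5.47) and 3 (4.36) of its group. All 6 libraries were kept.

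The whole table was fitted in R 4.3.3 with edgeR 4.0.16 (filterByExpr defaults, TMM, robust quasi-likelihood fit, Benjamini-Hochberg adjustment, threshold 0.05), and the SE is the absolute log2 fold change over the square root of F. The fit was tested on simulated data. Alternatives were other scalings and filters, DESeq2 1.42.0, limma-voom (limma 3.58.1), glmTreat, a replicate block and leaving out each library. Removal of GC and length trends (mgcv 1.9.3, 87.9% of tested genes matched by symbol) was added after seeing the data. Lengths and overlaps came from GENCODE v29, and promoter windows from RefSeq GRCh38.p14, all 10 members matched.

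The members, pairs and lists were chosen with earlier results of these data known. Named were all members, HDAC1, HDAC2 and RBBP7, and up to 3 changed genes of each other list with the smallest p. Other genes (BCL6, EPCAM, PECAM1, VIM, CHD5, CDK2AP2, CHD1L, IKZF1, SALL2, MBD5, BAZ2B, SAP130, BRMS1L, KDM1A, JARID2, MTF2, CHAF1A, CHAF1B and the overlapping genes) were named after their values were seen. The symbols GSE1 and TRBC1 were not matched.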

Additional observations from a re-analysis of the deposited data

How the results depend on the processing

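CHD3, MTA3 and MBD2 kept their direction and their call in all 16 alternatives, and MTA1, MTA2 and GATAD2B in all except glmTreat against 1.2-fold. Under glmTreat 0 members were higher, 3 were lower and 4585 genes passed in all. Leaving out single libraries gave 4 lower members each time and 2 higher, or 3 without mutant rescue library 2, when MBD3 passed. With library size scaling RBBP4 passed as the third higher member.

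The replicate block gave 2 higher and 4 lower members and 9285 genes in all. Deviations of same-numbered libraries correlated at 0.20, 0.24 and -0.072, and those of differently numbered libraries at -0.25 to 0.11. Libraries 1 and 2 of each group correlated best with their own number, and library 3 of each group did not. It is therefore not known whether the numbers pair the samples.

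With the longest protein-coding transcript as length, the log2 change of the CHD3 and CHD4 sum was -0.19 in place of -0.25, of the MTA sum 0.045 in place of 0.091 and of the RBBP4 and RBBP7 sum -0.081 in place of -0.050. The change of the share was -5.33 percentage points for MTA1, 7.72 for MTA2 and -1.98 for HDAC1. These differences come from the lengths alone. With GC and length trends removed the HDAC1 to HDAC2 ratio changed by -0.39 on the log2 scale, and the cause was not tested.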
